A study of Mus musculus with 6 samples.

Results

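The rows of microRNA genes were examined in RNA-seq of SLAM-LSK cells, cells sorted from bone marrow to enrich haematopoietic stem cells. Members were the rows whose symbol is Mir or Mirlet followed by a number, with an optional letter and copy number. This gave 35 of the 18465 rows in the deposited table. The 3 host gene rows Mir17hg, Mir155hg and Mir99ahg were left out. SLAM-LSK cells carry CD150, Sca-1 and c-Kit and lack CD48 and lineage markers. They came from mouse bone marrow on the C57BL/6 background. One group of 3 libraries was labelled WT. The other group of 3 was labelled MecomWT:R751W, with 1 wild-type and 1 R751W allele of Mecom, and neither age nor sex was given. Mecom encodes a zinc finger transcription factor, and EVI1 is the name of its shorter product. The series title sets MECOM against GATA2 in leukaemia and mast cells, and this comparison addresses what the R751W allele does in a stem cell fraction.

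A microRNA starts as a hairpin within a longer primary transcript. Drosha and Dgcr8 cut the hairpin out in the nucleus, Xpo5 exports it, Dicer1 trims it to a duplex and an Argonaute protein keeps 1 strand. Bases 2 to 8 of that strand, the seed, pair with target messenger RNAs, and mature sequences with the same seed form a family. In stem and progenitor cells, the let-7 family is known for restraining growth programmes and miR-29a and miR-23a for shaping self-renewal and lineage choice. A row for a hairpin of 56 to 123 bases can count reads of any RNA that crosses it, such as a primary transcript, the hairpin itself, an unspliced intron, an exon of another gene or a small nucleolar RNA at the same place. With the strand setting of the authors' counting not given in the sources used here, reads from the opposite strand cannot be told apart either. How far mature strands enter these libraries was not tested.

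A RefSeq table of GRCm38.p6, the assembly that mm10 stands for, held 46 mature sequences for 31 of the 35 members. The following are shown because the results turn on them, with the seed in capitals. The first 4 belong to members on a list of microRNA genes of blood stem and progenitor cells or linked to EVI1. The next 7 come from 5 members whose groups did not overlap, and the last 3 from the 3 rows of highest level.
let-7a-5p: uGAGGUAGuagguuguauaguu
let-7f-5p: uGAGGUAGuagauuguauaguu
miR-23a-3p: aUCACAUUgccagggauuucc
miR-29a-3p: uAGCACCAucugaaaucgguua
miR-3064-5p: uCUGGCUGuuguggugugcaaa
miR-3064-3p: uGCCACACugcaacaccuuaca
miR-721: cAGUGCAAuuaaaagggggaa
miR-3061-5p: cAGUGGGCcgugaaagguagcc
miR-3061-3p: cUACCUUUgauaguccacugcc
miR-215-5p: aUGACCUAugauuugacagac
miR-7a-5p: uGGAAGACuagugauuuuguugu
miR-6236: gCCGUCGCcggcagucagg
miR-6240: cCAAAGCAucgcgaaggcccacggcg
miR-6516-5p: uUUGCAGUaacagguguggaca
Among the 31 members with a mature sequence, only Mirlet7a-1 and Mirlet7f-1 shared a seed, GAGGUAG on the 5p arm and UAUACAA on the 3p arm. The seed of miR-721, AGUGCAA, is also that of miR-130a-3p, miR-130b-3p, miR-130c, miR-301a-3p, miR-6341 and miR-6389. The seed of miR-3064-5p is that of miR-3085-3p, and the seed of miR-6240 is that of miR-330-3p. The seed of miR-29a-3p is that of miR-29b-3p and miR-29c-3p, the seed of miR-215-5p is that of miR-192-5p, and the seed of miR-7a-5p is that of miR-7b-5p. None of those relatives was a member. Mir1949, Mir28c, Mir6395 and Mir5099 are named only.

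The values are TPM, in which reads per unit of gene length are scaled to a sum of 1000000 per library. Such levels can be compared between genes of similar length. Whether this holds between hairpin rows of 56 to 123 bases and longer genes was not tested. It depends on how reads that cross only part of a row were counted. Whole reads could be recovered from the ratios of TPM, and they implied 10907979 to 12753076 reads per library. For all 35 members the implied length equalled the RefSeq length within 0.05 bp. The stem and progenitor markers had a row for 16 of 16 genes, with summed levels of 730.2 to 840.9 TPM in WT against 664.4 to 807 TPM in MecomWT:R751W. Mecom stood at 34.9 to 42.9 TPM in WT against 39.95 to 50.9 TPM in MecomWT:R751W, and a gene total does not separate the 2 alleles. Of 15 lineage markers gated out, 5 had a row (summed 80.1 to 117.2 TPM in WT against 76.6 to 103.7 TPM in MecomWT:R751W). Most of that sum was Ptprc, the CD45 gene that blood stem cells express too, at 54.5 to 82.9 TPM over all libraries. The T cell marker Cd4 was at 1.08 to 2.32 TPM in WT and at 2.03 to 4.29 TPM in MecomWT:R751W, with overlap (log2 fold change 0.78, SE 0.26, adjusted p = 0.602, limma). Mature blood cell markers had a row for 12 of 20 (224.9 to 260.3 against 204.2 to 252.2 TPM) and stroma and vessel markers for 5 of 10 (35.8 to 41.8 against 37.1 to 49.5 TPM). Within the latter list, the endothelial and stem cell sialomucin gene Emcn did not overlap, at 13.6 to 13.7 TPM in WT and at 19.3 to 25.1 TPM in MecomWT:R751W (log2 fold change 0.59, SE 0.15, adjusted p = 0.344, limma). Cd48, the marker sorted against, was at 1.02 to 2.18 TPM in WT against 2.27 to 4.10 TPM in MecomWT:R751W, without overlap. The part of Cd48, Cd4 and Emcn in the results below was not tested.

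Members took 4.94%, 9.98% and 5.49% of TPM in WT replicates 1, 2 and 3. The shares in MecomWT:R751W replicates 1, 2 and 3 were 6.24%, 6.54% and 8.71%. WT replicate 2 was the highest of all 6 libraries and WT replicate 1 the lowest, so the groups overlapped. Summed levels of 68020 ± 27680 TPM in WT against 71670 ± 13480 TPM in MecomWT:R751W (SD, n = 3 each) did not differ beyond their spread (exact two-sided permutation p = 0.8). With 3 libraries against 3 the smallest p this test can give is 0.1. In sorted bulk samples, fewer cells of a type and less RNA per cell cannot be told apart.

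Nearly all of that share was 1 row. Mir6236, at chr9:110281287-110281409 on the plus strand and outside other annotated genes, was at 45150, 95270 and 50300 TPM in the WT libraries. The MecomWT:R751W libraries held 58200, 61170 and 82640 TPM of it. The highest and the lowest value, 2.11-fold apart, were both in WT, and the groups overlapped. Mir6236 alone took 4.51% to 9.53% of TPM, and its log2 fold change of 0.15 (SE 0.33) on the log2(TPM + 1) scale had an adjusted p of 1 in limma. The sign rested on single libraries, at -0.06 without WT replicate 1, -0.01 without MecomWT:R751W replicate 3 and 0.48 without WT replicate 2.

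The high value of Mir6236 in WT replicate 2 was shared by Rn18s-rs5, an 18S ribosomal RNA row. Rn18s-rs5 stood at 27590, 65020 and 31210 TPM in WT and at 36440, 52150 and 46540 TPM in MecomWT:R751W. Mir6236 was 1.17 to 1.78 times as high as this row in the 6 libraries, whereas each row alone spanned more than 2-fold. Gm46178, a predicted gene, followed the same order in WT, at 7038, 16840 and 8895 TPM, and Mir6236 was 4.96 to 6.66 times as high in the 6 libraries. The mitochondrial ribosomal rows mt-Rnr1 and mt-Rnr2 did not follow it, and were at 44200 and 47870 TPM in WT replicate 2, the lowest WT values of each. How far residual ribosomal RNA enters the Mir6236 row was not tested.

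Mir6240, at chr5:114851948-114852064 on the plus strand and likewise outside other genes, was the member of next highest level. Its WT values were 1885, 2393 and 2134 TPM, and its MecomWT:R751W values 2449, 2286 and 2597 TPM. WT replicate 2 lay above MecomWT:R751W replicate 2, so the groups overlapped, and the log2 fold change was 0.20 (SE 0.15, adjusted p = 1, limma). It was 0.11 without WT replicate 1. Mir6240 did not track Mir6236 closely: the ratio of Mir6236 to Mir6240 ran from 23.6 in WT replicate 3 to 39.8 in WT replicate 2.

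**Figure D1:**
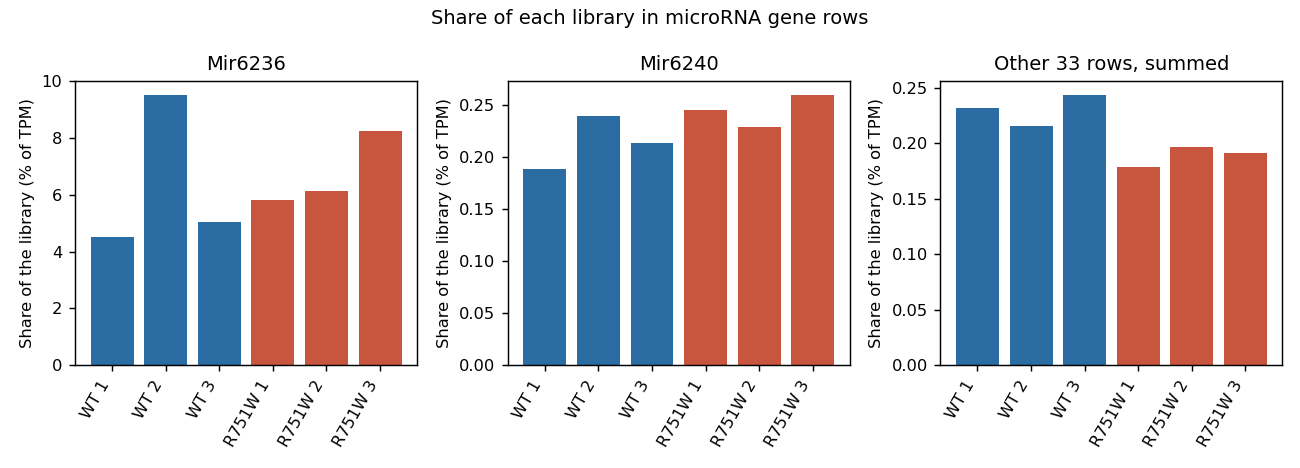
Share of each library's TPM (vertical axes, percent, from 0, with a different scale for Mir6236) in Mir6236, in Mir6240 and in the other 33 microRNA gene rows summed, 1 bar per library, WT in blue and MecomWT:R751W in red. Mir6236 takes 4.51% to 9.53% and is highest in WT 2, while the other 33 rows take 0.216% to 0.244% in WT and 0.179% to 0.197% in MecomWT:R751W.

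The other 33 rows together held 2323, 2163 and 2437 TPM in WT and 1786, 1972 and 1908 TPM in MecomWT:R751W. Every WT library lay above every MecomWT:R751W library, at 2308 ± 138 against 1889 ± 94.4 TPM (exact permutation p = 0.1, the smallest possible). This sum was chosen after the values were seen. Its highest rows, Mir6516 and Mir3064, weigh most in this sum, which does not describe each of the 33 rows. Rows on a snoRNA or scaRNA held 1155 ± 161 TPM of it in WT and 1002 ± 206 TPM in MecomWT:R751W (exact permutation p = 0.4). Mir6516 alone made up 869.4 and 695.7 TPM of these. Rows on an exon of the same strand held 588.7 ± 108 and 389.1 ± 73.9 TPM, without overlap (exact permutation p = 0.1), of which Mir3064 alone made up 454.6 and 286.2 TPM. Rows in introns held 312.7 ± 60.3 and 293.3 ± 22.7 TPM and did not separate the groups (exact permutation p = 0.7). Rows with only an opposite-strand gene held 167.5 ± 39.3 and 129.3 ± 18.7 TPM (exact permutation p = 0.2). The exon class was the one of these 4 whose summed levels did not overlap.

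Most members rest on few reads. Over the 6 libraries together a member had between 61 and 388063 implied reads, with a median of 109, against 1020 for the whole table, and 27 of 35 had fewer than 200. No member was at 0 in any library. Mir23a, Mir29a and Mir6395 each had a library with 1 read, for which the exact Poisson 95% interval runs from 0.0253 to 5.57 reads. Such intervals cover counting error only. The spread between replicates was larger than counting gives for most: the within-group variance of reads over their mean, 1 for pure counting, had a median of 3.62 and exceeded 2 in 26 of 35 members. Mir6236 was highest at 7010 and Mir215 lowest at 0.205. At the same relative spread this ratio grows with read number, and the coefficient of variation of Mir6236 was 29.8%. The median coefficient of variation was 37.2% over members and 15.4% over all rows tested.

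**Figure D2:**
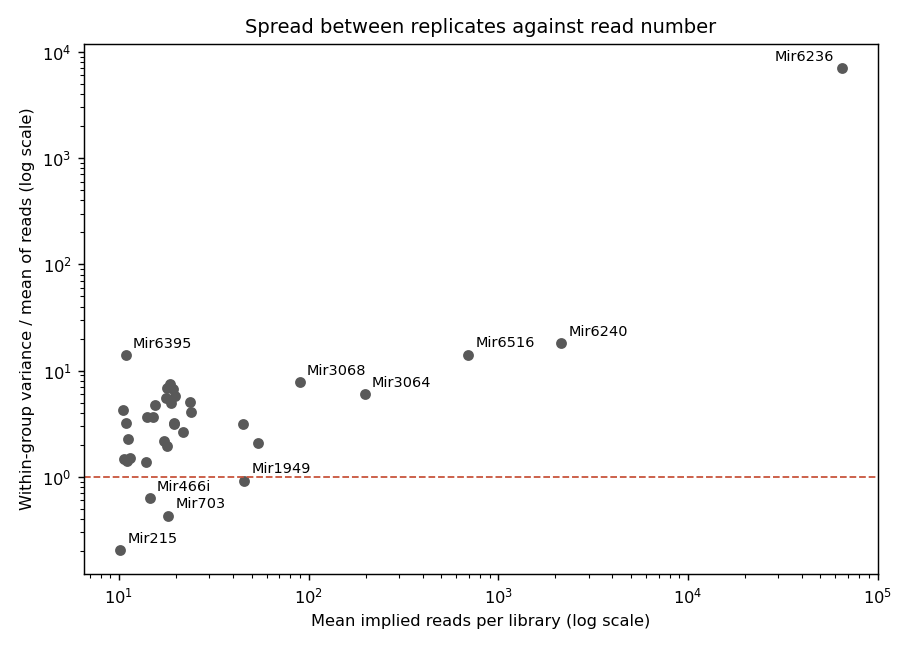
Within-group variance of implied reads divided by their mean (vertical axis, log scale) against the mean implied reads per library (horizontal axis, log scale), 1 point per microRNA gene row, with a dashed line at 1, the value for pure counting. Most points lie above the line, with Mir6236 at 7010, and 4 lie under it, among them Mir215 at 0.205.

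None of the 35 members passed the adjusted threshold of 0.05 in limma, and neither did any of the 16655 rows tested (0% called). The smallest adjusted p was 0.337 among members and 0.0856 among all rows. Of the log2 fold changes of members, 16 lay above 0 and 19 below, as did 51% of all rows, and the median was -0.08 against -0.0037 for all rows. An unadjusted p under 0.05 was found for 8 of 35 members, against 5.97% of all rows. Lower in MecomWT:R751W were 6 of them (3.23% of all rows), and 2 were higher (2.74% of all rows), Mir1949 and Mir7652. The 3 WT and 3 MecomWT:R751W values did not overlap for 6 members (17.1%), against 9.19% of all rows tested. Among these, 5 were lower in MecomWT:R751W (4.7% of all rows), Mir3064, Mir721, Mir3061, Mir215 and Mir7-1, and 1, Mir1949, was higher (4.5% of all rows). These counts describe members chosen by name and were not tested as a set. limma-voom on implied reads called 0.318% of all rows (53) and 0 members.

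**Figure D3:**
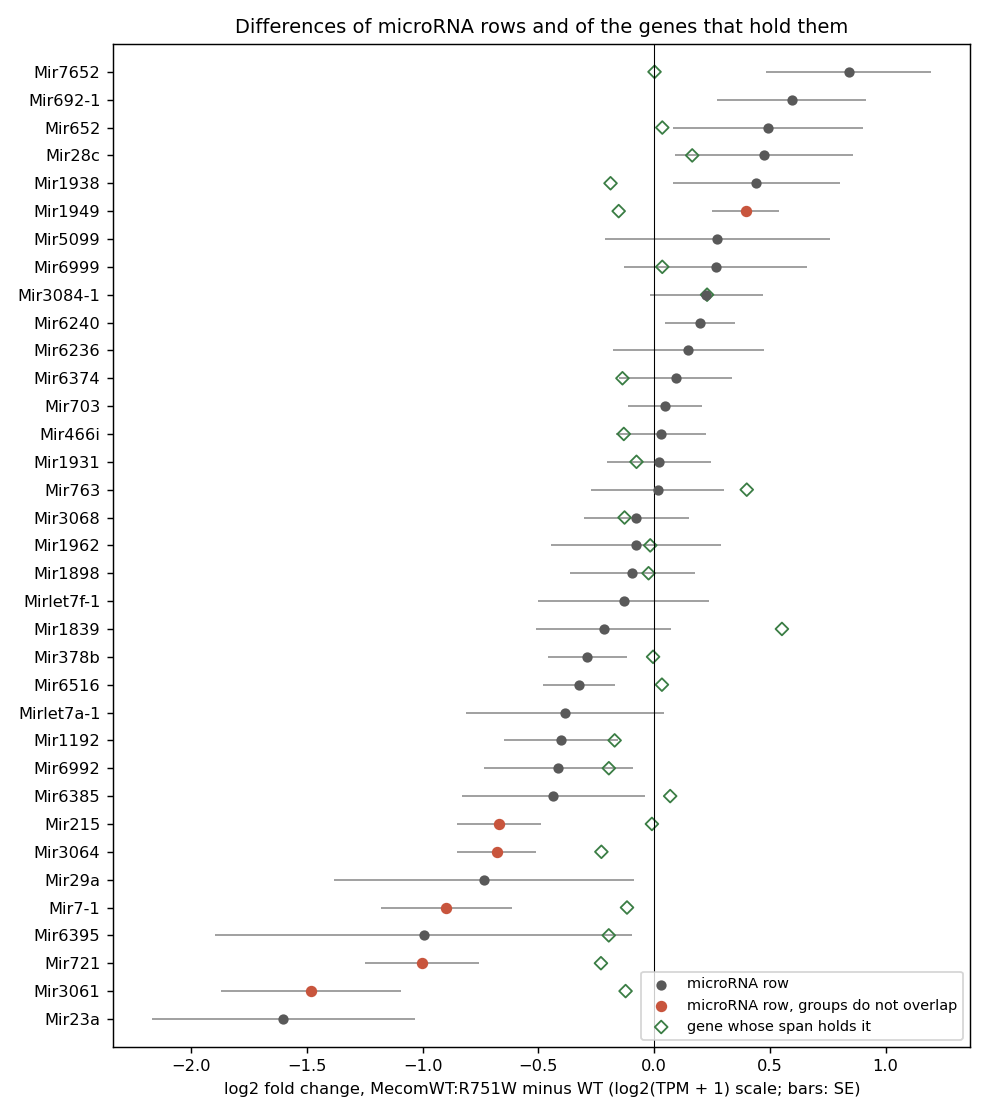
Log2 fold change, MecomWT:R751W minus WT, on the log2(TPM + 1) scale (horizontal axis) for the 35 microRNA gene rows, ordered by value, with the standard error as bars; red points are the 6 rows whose groups do not overlap and open green diamonds the 26 genes that hold a member on either strand. Rows span -1.60 for Mir23a to 0.84 for Mir7652, while the diamonds lie between -0.23 and 0.55.

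A gene that holds the member on either strand had a row of its own for 26 members. These genes varied less, with a median coefficient of variation of 12.9%. They also rested on more reads, with a median of 7977 over all libraries against 109 for members. Their log2 fold changes had a median of -0.05 and a range of -0.23 to 0.55, and the values did not overlap for 2 of 26 (7.69%, against 9.19% of all rows), 2900076A07Rik and Hmga2. Per length, 10 members stood above the mean level of that gene. How far the short length of the hairpin rows enters such comparisons of level, here and below, was not tested.

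Of the members on an exon, Mir3064 at chr11:106782693-106782759 on the minus strand had the most reads. Exons of Ddx5 cover all 67 bases. The 3 of its 9 transcripts with an exon there are annotated as protein-coding, nonsense-mediated decay and processed transcript. All 67 bases are annotated as untranslated in at least 1 transcript, and 1 base also as coding. Ddx5 is an RNA helicase that is itself a cofactor of Drosha. Mir3064 was at 531.3, 403.3 and 429.3 TPM in WT, from 222 to 267 reads, and at 326.9, 215.4 and 316.2 TPM in MecomWT:R751W, from 115 to 178 reads. Every WT library lay above every MecomWT:R751W library. The log2 fold change was -0.68 (SE 0.17), with an adjusted p of 0.352 across all rows in limma. Ddx5 stood at 526.4 ± 51 TPM in WT against 450.3 ± 57 TPM in MecomWT:R751W, with overlap, and its log2 fold change was -0.23 (SE 0.14). It was nearest to its holder gene in level of these separated rows, at 0.758 of Ddx5.

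Mir3061, at chr11:52126746-52126836 on the plus strand, lies in untranslated sequence of 1 of 2 transcripts of Ppp2ca, the catalytic subunit of protein phosphatase 2A. A lincRNA, 9430098F02Rik, covers it on the opposite strand. Its values were 19.0, 16.1 and 30.7 TPM in WT, and 7.62, 2.76 and 14.4 TPM in MecomWT:R751W. These rest on 12 to 24 reads in WT and 2 to 11 in MecomWT:R751W, and did not overlap. The log2 fold change was -1.48 (SE 0.39, adjusted p = 0.4, limma), or -0.94 without MecomWT:R751W replicate 2. Ppp2ca, far more abundant at 131.8 ± 22 and 119.9 ± 4.63 TPM, had a log2 fold change of -0.12 (SE 0.14).

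Mir215 encodes a microRNA known as a target of p53 and lies at chr1:185313581-185313692 on the plus strand. It is covered by the antisense RNA 2010103J01Rik and stands opposite an intron of Iars2, the mitochondrial isoleucyl-tRNA synthetase gene. WT values were close together at 14.3, 14.1 and 13.5 TPM, and MecomWT:R751W values were 6.19, 8.96 and 10.6 TPM. All MecomWT:R751W libraries lay below WT, on 5 to 10 reads against 12 or 13. The fold change was -0.67 on the log2 scale (SE 0.18, adjusted p = 0.431, limma). The variance over mean of 0.205 shows that these replicates lay closer together than counting alone gives on average. Iars2 was at 20.3 ± 1.93 and 20.1 ± 1.34 TPM.

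The remaining exon rows overlapped between groups. Mir7652 lies in untranslated sequence of G3bp1, a stress granule protein, and had the highest fold change of any member, 0.84 (SE 0.36, adjusted p = 0.794, limma). It was named because it is 1 of the 2 members higher at an unadjusted p under 0.05. Its values were 7.14, 23.9 and 27.0 TPM in WT and 27.2, 26.9 and 40.4 TPM in MecomWT:R751W, so that WT replicate 1 stood apart and WT replicate 3 exceeded 1 MecomWT:R751W library. Mir6992 lies on a retained intron of Stx5a, a syntaxin, and ranged from 8.55 to 31.8 TPM in WT and from 12.0 to 13.8 TPM in MecomWT:R751W.

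Mirlet7a-1 and Mirlet7f-1 lie 261 bases apart on the minus strand of chromosome 13, on the exon of the lincRNA 6720427I07Rik, and are known as members of 1 cluster. The hairpin of Mirlet7a-1 is shown with both mature arms in capitals, because it makes plain that the row covers more than the mature strand. It spans chr13:48538179-48538272.
Mirlet7a-1: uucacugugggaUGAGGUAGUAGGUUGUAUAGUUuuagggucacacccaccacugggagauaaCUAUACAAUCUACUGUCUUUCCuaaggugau
Mirlet7a-1 was at 49.6, 9.06 and 29.7 TPM in WT and 13.3, 18.7 and 24.1 TPM in MecomWT:R751W. Mirlet7f-1, at chr13:48537829-48537917, was at 55.4, 13.7 and 19.6 TPM in WT and 18.7, 19.7 and 30.8 TPM in MecomWT:R751W. Both rows had their highest value in WT replicate 1 and their lowest in WT replicate 2, on 7 to 37 reads per library, and the groups overlapped. MecomWT:R751W libraries stood in the same order in both rows. The log2 fold changes were -0.38 (SE 0.43) for Mirlet7a-1 and -0.13 (SE 0.37) for Mirlet7f-1 (adjusted p = 1 each, limma). Without WT replicate 1 they were 0.12 and 0.43, so the direction rests on that library, and without WT replicate 2 they were -1.04 and -0.54. Lin28b, the RNA-binding protein that blocks let-7 processing, was below the filter at 0.331 to 0.554 TPM in WT against 0.0473 to 0.298 TPM in MecomWT:R751W. These Lin28b values did not overlap and were not tested.

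Mir23a and Mir29a are the other members on the list of microRNA genes of blood stem and progenitor cells or linked to EVI1, for which the table held a row for 4 of 117 genes. Mir23a, at chr8:84208518-84208592, is the first hairpin of a cluster known for favouring myeloid over B cell fate. Its values were 33.8, 17.9 and 24.8 TPM in WT and 24.03, 8.37 and 1.59 TPM in MecomWT:R751W. MecomWT:R751W replicate 1 lay within the WT range and replicates 2 and 3 below it, on 5 reads and 1 read. Its fold change of -1.60 on the log2 scale (SE 0.57, adjusted p = 0.669, limma) was the lowest of all members. Without MecomWT:R751W replicate 1 it was -2.38 and passed limma's test (adjusted p = 0.0275), and without replicate 3 it was -0.75. Over the 16 alternatives run, its adjusted p lay between 0.0275 and 0.939.

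Mir29a, at chr6:31062660-31062747, encodes a microRNA that is abundant in haematopoietic stem cells. It stood at 25.8, 8.30 and 17.2 TPM in WT and at 18.9, 19.97 and 1.35 TPM in MecomWT:R751W. Only MecomWT:R751W replicate 3, with 1 read, was below the WT range. The log2 fold change of -0.74 (SE 0.65, adjusted p = 1, limma) became 0.30 without that library and -1.27 without MecomWT:R751W replicate 2.

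**Figure D4:**
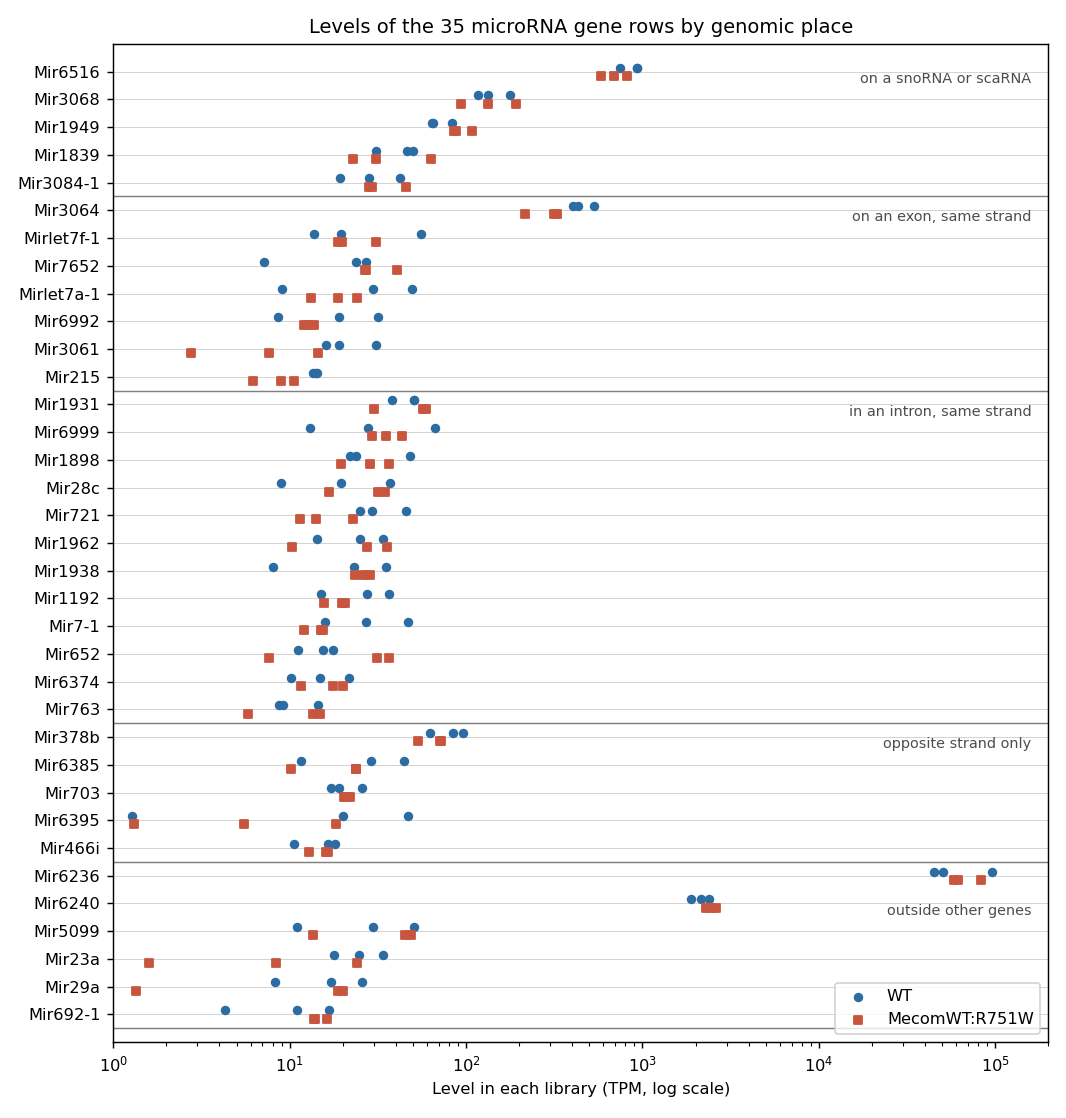
Level in each library (horizontal axis, TPM on a log scale) of the 35 microRNA gene rows, grouped by where the hairpin lies and ordered by mean level within a group, with WT as blue circles and MecomWT:R751W as red squares, 1 point per library. Mir6236 and Mir6240 stand far to the right, 30 rows have a mean under 100 TPM, and the libraries with 1 read give the points near 1 TPM for Mir23a, Mir29a and Mir6395.

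Rows in introns were the largest class, with 12 members, and the groups did not overlap for 2 of them (16.7%, against 9.19% of all rows). Mir721 lies at chr5:136375716-136375803 on the minus strand in an intron of Cux1, a homeodomain factor and tumour suppressor in myeloid leukaemia, with an intron of the antisense RNA Gm16599 opposite. It was at 45.5, 24.9 and 29.1 TPM in WT and at 14.2, 11.4 and 23.0 TPM in MecomWT:R751W. The lowest WT library, at 18 reads, lay just above the highest MecomWT:R751W library, at 17 reads. The fold change was -1.001 on the log2 scale (SE 0.25), with the smallest adjusted p of the members, 0.337 in limma. Cux1 itself was at 84.7, 55.2 and 44.7 TPM in WT and at 50.7, 46.8 and 54.2 TPM in MecomWT:R751W, with overlap and a log2 fold change of -0.23 (SE 0.19). WT replicate 1 was highest for both.

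Mir7-1 lies at chr13:58392779-58392886 on the minus strand in an intron of Hnrnpk, an RNA-binding protein. Its microRNA, miR-7, is known for acting on growth factor signalling. The row held 46.9, 15.8 and 27.0 TPM in WT and 15.4, 15.1 and 12.1 TPM in MecomWT:R751W. WT replicate 2, with 14 reads, was above MecomWT:R751W replicate 1, with 12 reads, by less than 1 TPM. The log2 fold change of -0.90 (SE 0.28, adjusted p = 0.583, limma) was -0.52 without WT replicate 1. Hnrnpk was at 114.4 ± 18 TPM in WT against 105 ± 12 TPM in MecomWT:R751W, and WT replicate 1 was highest in it too, at 134.8 TPM.

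**Figure D5:**
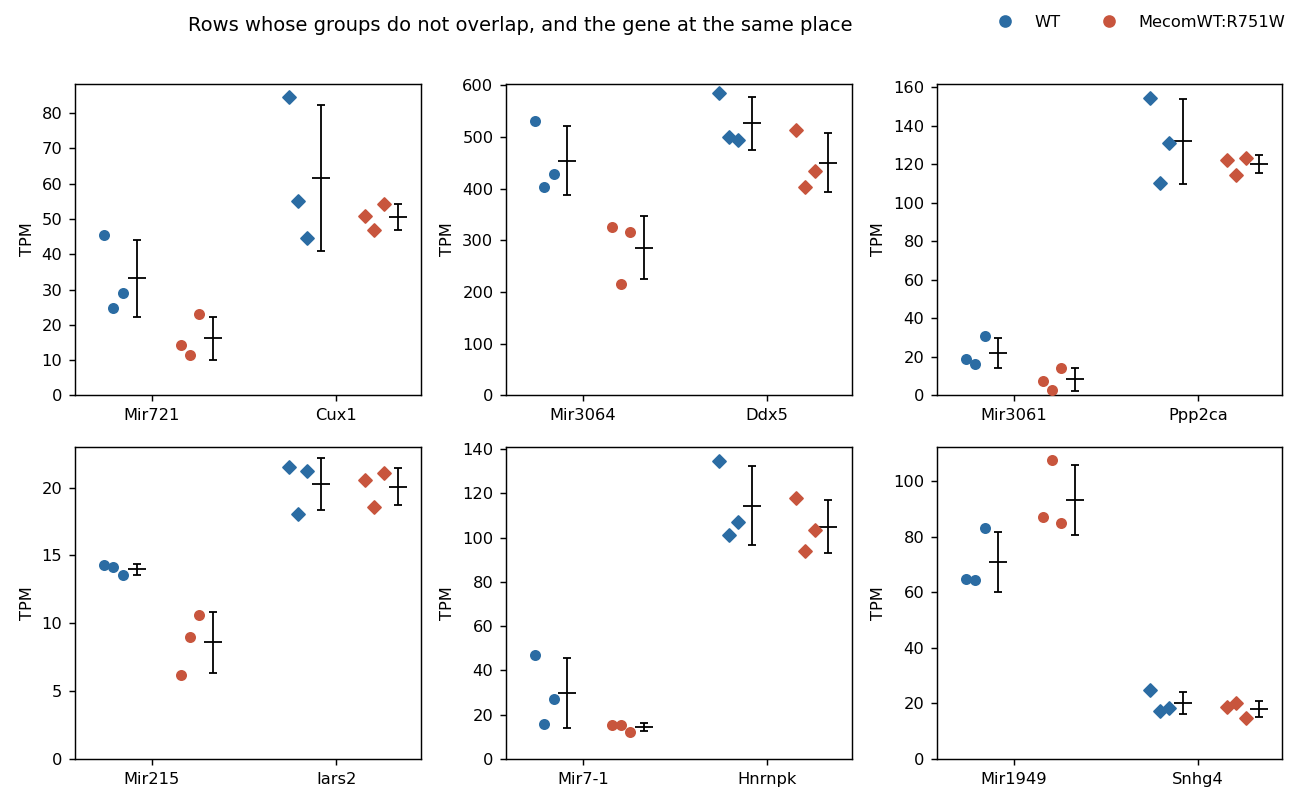
TPM (vertical axes, from 0) of the 6 rows whose groups do not overlap (circles, left in each panel) and of the gene at the same place (diamonds, right), 1 point per library, WT in blue and MecomWT:R751W in red, with the mean and SD in black. In each panel the microRNA row separates the groups and the gene at the same place does not, as for Mir3064 at 454.6 against 286.2 TPM and Ddx5 at 526.4 against 450.3 TPM.

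The other 10 intronic members overlapped between groups. Mir1931, in an intron of the kinase gene Cdk17, was at 50.4, 37.8 and 50.9 TPM in WT and at 57.1, 59.1 and 30.0 TPM in MecomWT:R751W, a log2 fold change of 0.02 (SE 0.22) with a sign that single libraries turned. Mir6999, in an intron of the diacylglycerol kinase gene Dgkz, spread from 13.1 to 66.8 TPM within WT alone, with MecomWT:R751W inside that range at 29.3 to 43.2 TPM. Its log2 fold change of 0.27 (SE 0.40) was -0.28 without WT replicate 1 and 0.85 without WT replicate 3. Mir1898 (Zfr), Mir28c (Samd12), Mir1962 (Ptpre), Mir1938 (Ifrd1), Mir1192 (Klf9), Mir652 (Tmem164), Mir6374 (Tet3) and Mir763 (Hmga2) had mean levels of 11.1 to 29.9 TPM. Hmga2, a chromatin protein of fetal stem cells and a let-7 target, was at 5.76 ± 0.405 TPM in WT against 7.98 ± 1.36 TPM in MecomWT:R751W without overlap (log2 fold change 0.40, SE 0.17, adjusted p = 0.797, limma). Mir763 within it was at 10.8 ± 3.19 and 11.4 ± 4.93 TPM.

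The 5 members on a snoRNA or scaRNA lie on small RNAs that guide the modification of ribosomal or spliceosomal RNA. Among them was Mir6516, the member of highest mean level after Mir6236 and Mir6240. Members were kept in this class even where an exon of another gene on the same strand also covers them. Mir6516, at chr11:117077348-117077457 on the plus strand, lies on an exon of the lincRNA Snhg20 and shares 75.8% of its 20-base windows with the scaRNA Gm26083. Its hairpin is printed with both mature arms in capitals, because the scaRNA covers 88 of the 110 bases.
Mir6516: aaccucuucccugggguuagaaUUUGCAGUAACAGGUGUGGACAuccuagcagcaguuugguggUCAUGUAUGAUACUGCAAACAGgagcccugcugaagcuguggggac
Mir6516 was at 742.9, 930.5 and 934.7 TPM in WT and at 582.3, 812.3 and 692.4 TPM in MecomWT:R751W. Only WT replicate 1 lay within the MecomWT:R751W range, so the groups overlapped, and the log2 fold change was -0.33 (SE 0.16, adjusted p = 0.867, limma). It ran from -0.445 without MecomWT:R751W replicate 2 to -0.205 without replicate 1. Per length the row was 40.6 times as high as Snhg20, which stood at 19.1 ± 4.14 and 19.5 ± 3.48 TPM.

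Mir3068, on an annotated snoRNA in an intron of Alkbh1, was at 116.4, 134 and 178.4 TPM in WT and at 93.0, 192.2 and 132.6 TPM in MecomWT:R751W. The highest and lowest values were both MecomWT:R751W libraries. It was 4.35 times as high as Alkbh1, a nucleic acid demethylase gene, and had a log2 fold change of -0.08 (SE 0.23), which ran from -0.34 without MecomWT:R751W replicate 2 to 0.18 without replicate 1. Mir1839, on a scaRNA, was at 31.1, 50.0 and 46.3 TPM in WT and at 22.8, 63.6 and 31.0 TPM in MecomWT:R751W, with full overlap and a log2 fold change of -0.22 (SE 0.29), which ran from -0.63 without MecomWT:R751W replicate 2 to 0.09 without replicate 1. The lincRNA 2900076A07Rik on the same strand did not overlap between groups, at 4.75 ± 0.641 and 7.56 ± 2.05 TPM (log2 fold change 0.55, SE 0.20, adjusted p = 0.674, limma). Mir3084-1 shares 98% of its 20-base windows with Snora19 and stood at 29.9 ± 11.5 and 34.3 ± 9.69 TPM.

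Mir1949, on an annotated snoRNA on chromosome 18, was the member that was higher in every MecomWT:R751W library. It was at 64.8, 64.3 and 83.2 TPM in WT and at 87.1, 107.6 and 85.0 TPM in MecomWT:R751W. The groups nearly met, since WT replicate 3 and MecomWT:R751W replicate 3 both had 50 reads. Its log2 fold change was 0.40 (SE 0.14, adjusted p = 0.674, limma). The gene whose RefSeq span holds it, Snhg4, a snoRNA host RNA, was at 20.1 ± 4.04 and 17.9 ± 2.86 TPM, a log2 fold change of -0.15 (SE 0.17).

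The 5 members with a gene on the opposite strand only did not separate the groups. Mir378b stands opposite an intron of Msi2, an RNA-binding protein that maintains haematopoietic stem cells. It was at 84.0, 62.2 and 96.2 TPM in WT and at 72.3, 53.2 and 71.1 TPM in MecomWT:R751W. Replicate 2 was lowest in both groups, and the log2 fold change was -0.29 (SE 0.17, adjusted p = 0.95, limma), and it moved with single libraries, to -0.46 without WT replicate 2, -0.15 without MecomWT:R751W replicate 2 and likewise -0.15 without WT replicate 3. Msi2 was 41.1 ± 3.56 and 40.9 ± 2.05 TPM, so the microRNA row was 1.79 times as high per length as the gene opposite it. Mir6395, opposite an intron of the calcium entry regulator Saraf, was the most variable member, with a coefficient of variation of 112%. It held 46.9, 20.1 and 1.28 TPM in WT and 18.3, 5.52 and 1.31 TPM in MecomWT:R751W. Each group had a library with 1 read, and the log2 fold change of -0.996 (SE 0.90) was -0.07 without WT replicate 1 and -2.26 without WT replicate 3. Mir6385 lies on untranslated sequence of Pml, on the opposite strand, and ranged from 10.2 to 44.4 TPM over all libraries. Mir703 and Mir466i were among the 4 members with a variance over mean under 1, at 17.1 to 25.6 and 10.6 to 18.1 TPM.

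Sequence copies elsewhere bear on some members. Hairpin sequences were read for 27 members, without chromosome 18, where Mir1949 lies. Of these, 13 shared at least 10 windows of 20 bases with another transcript annotated in GENCODE. For most of them this was the gene at the same place. No reference for large-subunit ribosomal RNA or its precursor was available here, so copies of Mir6236 and Mir6240 in them were not tested. Mir703 shared 64.4% of its windows with Eef1a1, the translation elongation factor, which stood at 1411 TPM. Mir692-1 shared 53.3% with Ftl1-ps1 and 33.3% with Ftl1, the ferritin light chain, at 131.7 TPM. The levels of Mir703, Mir692-1 and Mir3084-1 are uncertain, with the counting of reads that match several places not given in the sources used here. Mir692-1 was at 10.7 ± 6.24 and 14.7 ± 1.43 TPM. Mir5099, outside other genes, was at 30.4 ± 19.7 and 35.8 ± 19.3 TPM.

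Genes that make and use microRNAs were read from 4 lists. Of 40 tested, none passed in either direction (limma), and the medians of the lists lay between -0.03 and 0.02 on the log2 scale, against -0.0037 for all rows. An unadjusted p under 0.05 was found for 1 of the 40, Tut7, against 5.97% of all rows, and groups did not overlap for 1, Limd1, against 9.19% of all rows. Drosha was at 34.4 ± 4.33 TPM in WT against 34.4 ± 2.37 TPM in MecomWT:R751W, and its partner Dgcr8 at 6.71 ± 1.05 and 7.69 ± 0.776 TPM. The exporter Xpo5 was at 26.8 ± 2.53 and 26.6 ± 0.565 TPM, Dicer1 at 19.4 ± 2.87 and 19.2 ± 1.48 TPM and its cofactor Tarbp2 at 6.66 ± 0.562 and 7.31 ± 1.24 TPM. These enzymes of hairpin cutting, export and trimming overlapped between groups.

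The Argonautes, which hold the mature strand, overlapped as well. Ago1 was at 33.3 ± 2.09 and 30.9 ± 4.08 TPM, Ago2 at 24.1 ± 3.45 and 24.2 ± 1.40 TPM, Ago3 at 5.81 ± 1.03 and 5.37 ± 0.685 TPM and Ago4 at 3.89 ± 0.998 and 3.19 ± 0.604 TPM. Limd1, an Argonaute-binding scaffold protein, was at 21.4, 17.7 and 20.4 TPM in WT and at 17.0, 15.7 and 16.9 TPM in MecomWT:R751W. These values did not overlap (log2 fold change -0.25, SE 0.14, adjusted p = 0.94, limma). Tut7, which adds uridines to precursors such as pre-let-7, was at 102.4, 64.9 and 69.9 TPM in WT and at 66.9, 51.7 and 57.5 TPM in MecomWT:R751W. MecomWT:R751W replicate 1 exceeded WT replicate 2, and the log2 fold change was -0.40 (SE 0.17, adjusted p = 0.79, limma). The host gene row Mir17hg, the primary transcript of the miR-17 to miR-92 cluster, was at 13.4 ± 1.86 and 12.3 ± 0.721 TPM. Mir155hg was at 5.62 ± 1.72 and 4.82 ± 1.57 TPM and Mir99ahg at 9.68 ± 1.43 and 8.82 ± 1.12 TPM, all 3 with overlap.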

How the data were processed

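The authors deposited 1 table of TPM for 18465 genes, 1 column for each of 6 libraries. Per the submitters' processing notes the build was mm10 and DESeq2 was used, with no role stated. Aligner, counter, strand setting and library kit: not given in the sources used here. Nothing says that libraries came from separate mice, and p-values then measure only the spread between these libraries. limma 3.58.1 (R 4.3.3) with a variance trend was run on log2(TPM + 1) over 16655 rows with a mean of at least 1 TPM, two-sided, Benjamini-Hochberg adjusted, threshold 0.05. A fold change on this scale understates changes of low rows. Whole reads were taken from TPM ratios, within 0.001 reads for 100% of genes; the procedure and the fit were tested on simulated data. Places come from GENCODE annotation and RefSeq coordinates of GRCm38. All 18465 symbols matched RefSeq, which lists 1228 microRNA genes.

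Members, lists and tests were chosen with earlier results of these data known. Named were the members on the stem cell and EVI1 list, the 10 of highest mean, up to 8 per direction of smallest unadjusted p without overlap, the 5 of highest coefficient of variation, their holder genes, and the microRNA-processing enzymes. Others were chosen after their values were seen. Alternatives changed the pseudocount, filter, scaling, block, variance trend and test, and left out each library. Values were computed with Python 3.11.15, numpy 2.4.6, pandas 2.3.3, scipy 1.17.1 and matplotlib 3.10.9.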

Additional observations from a re-analysis of the deposited data

How the results depend on the processing

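The count of 0 rows called over the table became 2 with a mean of at least 5 TPM and 53 with limma-voom, and ran from 0 to 13 when 1 library was left out. The count of members called ran from 0 to 1 (Mir23a, without MecomWT:R751W replicate 1). Rows without overlap ran from 7 to 15, a count that can only grow with fewer libraries. The difference of summed TPM, 3650 over all members, was -112.8 without Mir6236, -419.4 without Mir6236 and Mir6240 (added after the data were seen) and -0.18 as a mean of log2(TPM + 1); with 1 library left out it ran from -5681 to 19550. For single rows, 289 of 303 alternatives kept direction and side of the threshold. Mir1931 was -0.00758 with limma-voom. With 1 library left out, log2 fold changes that turned ran from -0.627 to 0.0938 for Mir1839, -0.146 to 0.331 for Mir1931, -1.27 to 0.304 for Mir29a, -0.338 to 0.181 for Mir3068, -0.0577 to 0.481 for Mir6236, -0.284 to 0.848 for Mir6999, -1.04 to 0.124 for Mirlet7a-1 and -0.538 to 0.433 for Mirlet7f-1. The median of all rows moved too, to -0.065 without WT replicate 2 and, without replicate 2 of MecomWT:R751W, to 0.053. Leaving out a library leaves fewer samples; other causes were not tested.

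Replicate numbers occur in both groups. Deviations of same-numbered libraries correlated at 0.14, 0.0893 and 0.0833 across genes, so the numbers were not taken to pair them, although each library correlated best with its own number. With the replicate block, 0 rows, 0 members and 0 biogenesis genes were called. Standard errors of single rows moved with the block in both directions. That of Mir6395 went from 0.90 to 0.327 and that of Mir6236 from 0.326 to 0.404. Low read numbers (under 200 over all libraries in 27 of 35 members) and a spread between replicates above counting error (variance over mean above 2 in 26 of 35) both limit precision, and their shares were not compared.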
